A study of Homo sapiens with 6 samples.

Results

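The noncoding RNAs described here are the hosts of small nucleolar RNAs (snoRNAs) together with 4 long nuclear RNAs that host none. Members were taken by symbol: every SNHG gene with a number, GAS5, ZFAS1, DANCR and EPB41L4A-AS1 as hosts, and NEAT1, MALAT1, TUG1 and MEG3 as the other nuclear RNAs, each with a count in any library. This gave 36 genes, 32 hosts and 4 others, of 60616 gene identifiers, 30039 of which had a count. They were measured by RNA sequencing in 12Z cells, an immortalized human endometriotic line, made to study the disease in which tissue like the uterine lining grows elsewhere in the body. The frankincense group received frankincense extract, made from a tree resin, for 12 h at a dose of 70 ug/mL, with DMSO as the solvent. The vehicle group received DMSO. Both groups are wild type, grew in charcoal-stripped serum, come from the same line and have 3 libraries each, and each library was made from total RNA with a TruSeq kit. The labels do not say that replicates are separate cultures, so p-values measure only the scatter of these samples, part or all of which may be technical.

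Small nucleolar RNAs are short guides that are cut from the introns of longer transcripts. C/D box snoRNAs direct methylation of ribosomal RNA and H/ACA box snoRNAs direct its pseudouridylation, while the related scaRNAs act on spliceosomal RNAs. Many hosts code for ribosomal or translation proteins, but the genes treated here make spliced RNAs without a long reading frame, and several of these are known to be translated briefly and then destroyed by nonsense-mediated decay. A number of them start with an oligopyrimidine tract, the feature that ties ribosomal protein mRNAs to growth signalling. The other nuclear RNAs work as whole molecules: NEAT1 is the scaffold of paraspeckles, MALAT1 gathers in nuclear speckles, TUG1 is a nuclear RNA linked to gene silencing, and MEG3 is made from the maternal copy of an imprinted locus.

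The hosts were checked against annotation. A snoRNA or scaRNA gene lay inside the span of 31 of 32 hosts and of 0 of the 4 other RNAs, the exception being SNHG27. The number inside ran to 84 in SNHG14, a run of C/D box genes in the imprinted Prader-Willi region, with 11 in GAS5 and 9 in SNHG1. The GAS5 genes come from the RefSeq table alone, which gives no strand. Leaving small RNA genes aside, exons of 19 hosts overlap an exon of another gene. With small RNA genes included the number is 27, and in 20 hosts a same-strand snoRNA or scaRNA gene lies at least partly in an exon of some annotated transcript. No source states that strand was kept in the libraries. If it was not kept, reads of such pairs on opposite strands cannot be told apart.

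Host transcripts that start with a C followed by at least 4 further pyrimidines were looked for in the GENCODE 29 annotation (GRCh38), because this start is the shared feature of translation-linked genes. Such a start was found in at least 1 transcript of 15 of 32 hosts and of 0 of the 4 other RNAs, against 15.2% of all tested genes and 6.67% of tested long noncoding genes. Genes with more transcripts have more chances to hold one, so the share over transcripts is also given: 39 of 297 host transcripts had it and 0 of 93 transcripts of the others, against 2.61% over tested genes. At RefSeq starts it was found in 7 of 28 hosts and 0 of 3 others, against 5.14% of 27305 genes. The first 30 bases of 8 such transcripts are shown with the tract in capitals, the first 5 from genes that rose and the last 3 from genes that fell with frankincense on the count scale.
GAS5, chr1:173867960-173867989, minus strand: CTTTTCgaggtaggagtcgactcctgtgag
ZFAS1, chr20:49278642-49278671, plus strand: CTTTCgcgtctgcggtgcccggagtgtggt
SNHG8, chr4:118278758-118278787, plus strand: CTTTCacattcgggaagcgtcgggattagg
SNHG29, chr17:16439037-16439066, plus strand: CTTTTCattcccgttgttatggaggtaggc
SNHG12, chr1:28581844-28581873, minus strand: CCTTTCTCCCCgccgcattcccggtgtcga
SNHG16, chr17:76557769-76557798, plus strand: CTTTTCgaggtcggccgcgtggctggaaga
SNHG18, chr5:9546200-9546229, plus strand: CTCCTCCTCCTCCTCCTCCCCgccggggtg
SNHG19, chr16:2155329-2155358, minus strand: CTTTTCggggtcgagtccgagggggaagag
The same tract of 6 bases opens GAS5 and SNHG29, which rose, and SNHG16 and SNHG19, which fell (SNHG16 was called on counts alone, as given below).

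The libraries held 22615150 to 27615196 expected counts, the estimated reads per gene, and 3 counts correspond to 0.109 to 0.133 CPM, the count scaled to library size; this limit covers counting error only. Frankincense replicate 3 stood apart: the chi-square per degree of freedom was 13.8 and 11.9 against the other frankincense libraries, 4.08 between those, and 3.82 to 4.41 among vehicle libraries. It was the lowest frankincense library for 20 of 29 tested hosts, against 38.3% of all tested genes. Markers of epithelium were present (KRT8 at 684 TPM with frankincense and 771 TPM with vehicle) beside those of stroma (COL1A1 at 699 and 1444 TPM in the same order), while CDH1 was at 0.020 and 0.133 TPM. All 6 stromal markers fell, their summed level being 897 to 1099 TPM with frankincense and 2245 to 2274 TPM with vehicle, and 2 of 6 tested epithelial markers rose and 4 fell. None of the 4 endothelial markers had enough counts to test, and CDH5 was at 0 in all libraries. Of 5 immune markers CD3E was at 0 in all libraries, LYZ had too few counts, PTPRC and CD68 were not called (CD68 at 46.2 TPM with frankincense and 29.2 TPM with vehicle), and CD14 fell, at 0.413 and 2.53 TPM in the same order. In bulk RNA, fewer cells of a type and less RNA per cell cannot be told apart, and the part of these shifts in the results on the noncoding RNAs was not tested.

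More hosts rose than fell. Of 33 members with enough counts, 29 are hosts, and by edgeR's quasi-likelihood test at an adjusted p under 0.05 over 16719 genes, 18 hosts rose, 7 fell and 4 were not called. Over all genes 62.9% were called, 31.9% rising and 31% falling, and over the 2323 tested long noncoding genes 17.4% rose and 29.2% fell. The median log2 change, frankincense over vehicle, was 0.32 over the tested hosts, 0.44 without frankincense replicate 3, and -0.0016 over all tested genes. It was -0.15 over the long noncoding genes. Over the 3 tested hosts with no exon overlap of any kind, SNHG26, SNHG18 and SNHG19, it was -0.51, 1 rising and 2 falling; over the 10 with none once small RNA genes are left aside it was 0.57. The change was at least 2-fold upward in 6 hosts, against 5.14% of all genes, and downward in 0 hosts, against 7.11%. All 3 frankincense libraries lay above all vehicle libraries for 16 hosts and below them for 7, against 34% and 33.5% of all genes. SNHG25, SNHG27 and SNHG31 had too few counts, their levels being 0.162, 0.0261 and 0.203 CPM with frankincense and 0.126, 0.0692 and 0.270 CPM with vehicle.

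**Figure D1:**
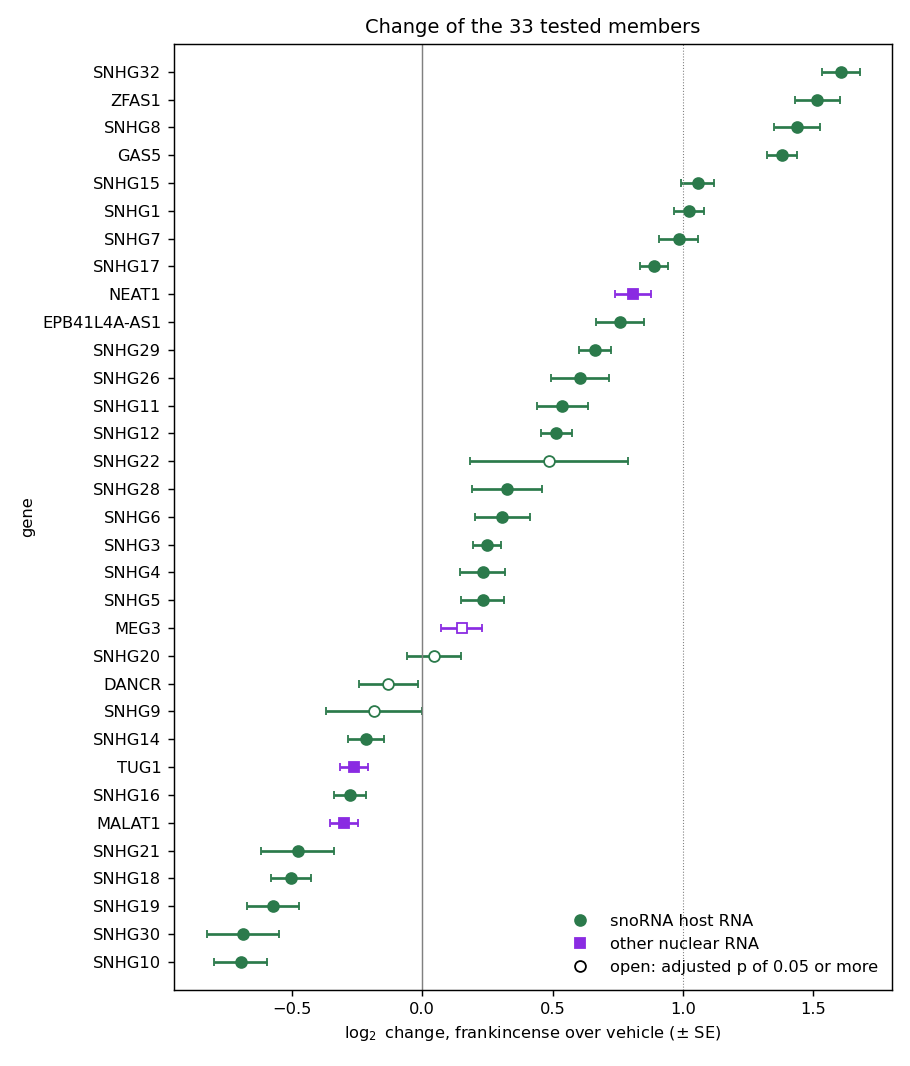
Log2 change, frankincense over vehicle, with its SE for the 29 tested hosts (circles) and the 4 other nuclear RNAs (squares), in order of size; open symbols were not called at an adjusted p under 0.05. The 6 hosts right of the dotted line rose by at least 2-fold, and NEAT1 stands at 0.81 among the risers. Of the called members left of 0 here, SNHG14, SNHG16 and MALAT1 change sign on the TPM scale. With TPM rescaled without mitochondrial genes they stay left of 0, and none of them was called.

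By TPM GAS5 was the most abundant host in both groups. By CPM it led with frankincense only, and SNHG29 was higher with vehicle. GAS5 is named for its accumulation in growth-arrested cells and carries both C/D and H/ACA box snoRNAs. GAS5 (ENSG00000234741, chr1:173863900-173868882, minus strand) had 516, 512 and 471 CPM in the frankincense libraries, against 193, 190.0 and 193 CPM in the vehicle libraries. All frankincense libraries were well above all vehicle libraries. The log2 change was 1.38 ± 0.058 (SE; edgeR, adjusted p = 8.36e-11).

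The largest change was that of SNHG32, the host of SNORD48 and SNORD52, which GENCODE 29 still lists as C6orf48, a coding gene (ENSG00000204387, chr6:31834608-31839766, plus strand). It had 213, 210.4 and 175 CPM with frankincense, against 66.2, 63.5 and 66.9 CPM with vehicle. Frankincense replicate 3 was the lowest of its group and still above every vehicle library. The log2 change was 1.61 ± 0.072 (SE; edgeR, adjusted p = 5.63e-10). An overlapping transcript on the same strand, ENSG00000285565, held 31.5, 21.4 and 2.05 CPM with frankincense and 17.2, 18.4 and 9.41 CPM with vehicle, a level that differed widely among libraries.

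ZFAS1, the host of SNORD12, SNORD12B and SNORD12C (ENSG00000177410, chr20:49278178-49295738, plus strand), had 189, 179 and 145 CPM with frankincense, against 60.9, 60.1 and 58.4 CPM with vehicle. SNHG8, the host of SNORA24 (ENSG00000269893, chr4:118278709-118279823, plus strand), had 22.7, 22.8 and 21.4 CPM with frankincense, against 8.04, 9.11 and 7.50 CPM with vehicle. The groups were far apart in both genes, and the vehicle libraries lay close together. The log2 changes were 1.52 ± 0.087 for ZFAS1 and 1.44 ± 0.087 for SNHG8 (SE; edgeR, adjusted p = 7.44e-08 and 3.61e-09). Both carry the same start tract of 5 bases, shown above.

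SNHG1, which packs C/D box genes from SNORD22 to SNORD31 (ENSG00000255717, chr11:62851988-62855914, minus strand), had 346, 342 and 315 CPM with frankincense, against 166, 168 and 159.7 CPM with vehicle. SNHG15, the host of SNORA9 (ENSG00000232956, chr7:44983023-44986961, minus strand), had 59.4, 63.1 and 58.6 CPM with frankincense, against 30.7, 29.3 and 27.1 CPM with vehicle. Neither gene had overlapping groups, and neither shares exon sequence with another annotated gene once small RNA genes are left aside; snoRNA genes lie in annotated exons of both. The log2 changes were 1.02 ± 0.057 for SNHG1 and 1.06 ± 0.063 for SNHG15 (SE; edgeR, adjusted p = 1.58e-09 and 2.92e-09).

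Among hosts of H/ACA box snoRNAs, SNHG7, with SNORA17A and SNORA17B, had 105, 95.2 and 83.2 CPM with frankincense, against 48.9, 48.1 and 46.5 CPM with vehicle. SNHG17, with the SNORA71 group, had 68.2, 69.2 and 67.1 CPM with frankincense, against 37.7, 36.0 and 36.7 CPM with vehicle. EPB41L4A-AS1, with SNORA13, had 24.3, 23.2 and 20.2 CPM with frankincense, against 11.8, 13.9 and 14.2 CPM with vehicle. In all of these the frankincense libraries lay above the vehicle libraries, with the narrowest spread in SNHG17. The log2 changes were 0.98 ± 0.076, 0.89 ± 0.053 and 0.76 ± 0.092 in the order named (SE; edgeR, adjusted p = 1.22e-07, 3.15e-09 and 5.01e-06). SNHG3, with SNORA73A and SNORA73B, changed less: it had 106, 98.7 and 111 CPM with frankincense, against 89.4, 89.99 and 86.3 CPM with vehicle, a log2 change of 0.25 ± 0.054 (SE; edgeR, adjusted p = 0.00105). Its groups did not overlap. SNHG3 shares 242 of its 4088 exon bases on the same strand with RCC1, which fell by 0.19 (edgeR, adjusted p = 0.00376). The value of SNHG3 thus depends in part on how RSEM divided reads between that pair.

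SNHG29, with SNORD49A, SNORD49B and SNORD65, came next to GAS5 among hosts by CPM with frankincense and stood above it with vehicle. It had 386, 391 and 346 CPM with frankincense, against 231, 232 and 245 CPM with vehicle. SNHG12, a host of both box types, had 51.9, 50.2 and 48.8 CPM with frankincense, against 35.5, 36.6 and 33.6 CPM with vehicle. Neither gene's groups overlapped, and the log2 changes were 0.66 ± 0.061 and 0.51 ± 0.059 (SE; edgeR, adjusted p = 2.91e-07 and 2.70e-06).

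SNHG5 and SNHG6, short C/D hosts that belong to the oligopyrimidine class, were called higher with overlapping groups. SNHG5 had 95.2, 101 and 78.0 CPM with frankincense, against 79.2, 78.2 and 76.4 CPM with vehicle. SNHG6 had 53.8, 51.8 and 39.7 CPM with frankincense, against 38.9, 41.3 and 37.2 CPM with vehicle. In both genes frankincense replicate 3 lay within the vehicle range and the other frankincense libraries above it. The log2 changes were 0.23 ± 0.081 for SNHG5 and 0.31 ± 0.10 for SNHG6 (SE; edgeR, adjusted p = 0.0264 and 0.0263), and without frankincense replicate 3 they were 0.34 and 0.44. SNHG5 lost its call on leaving out any of the other 5 libraries (adjusted p of 0.0565 to 0.0974), and SNHG6 on leaving out frankincense replicate 1 or 2 or vehicle replicate 1 or 3 (0.0674 to 0.0909).

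The other hosts that rose were below 20 CPM. SNHG26 and SNHG11 rose by 0.61 and 0.54 on the log2 scale (edgeR, adjusted p = 0.000274 and 0.000211) without overlap of groups. SNHG28 and SNHG4 rose by 0.32 and 0.23 (edgeR, adjusted p = 0.0461 and 0.0288). All 2242 exon bases of SNHG28 lie within exons of ENSG00000256029 on the same strand, which fell by 0.63 (edgeR, adjusted p = 0.00165), so the value of SNHG28 depends on how RSEM divided reads between the pair. SNHG4 shares 626 of its 4469 exon bases on the same strand with an entry of MATR3, so its value too depends on that division. The MATR3 entry had 2.43, 3.67 and 8.70 CPM with frankincense, against 0.0904, 1.19 and 1.17 CPM with vehicle. SNHG28 kept its call on leaving out vehicle replicate 2 alone of the 6 libraries. SNHG4 lost its call without vehicle replicate 1 or 3 (edgeR, adjusted p of 0.126 and 0.0842). SNHG28 and SNHG4 also lost their calls with the DESeq2 test (adjusted p = 0.157 and 0.109) and with upper-quartile scaling (edgeR, adjusted p = 0.0822 and 0.0701). The same held with TPM rescaled without mitochondrial genes (limma, adjusted p = 0.216 and 0.0737).

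**Figure D2:**
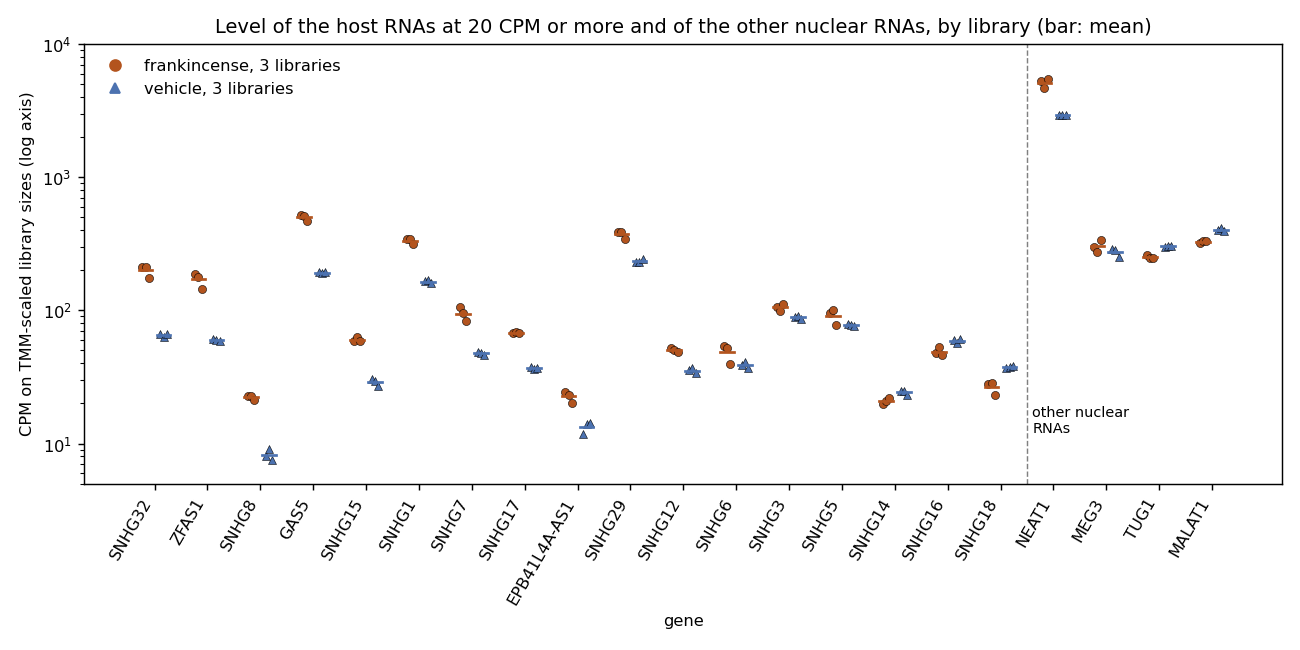
CPM in each of the 3 frankincense (circles, left) and 3 vehicle libraries (triangles, right) on a log axis, with a bar at the mean, for the hosts that reach 20 CPM and for the 4 other nuclear RNAs. The groups overlap in SNHG5, SNHG6 and MEG3 and in no other gene drawn.

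Fewer hosts fell, and most of these had low levels. SNHG18, the host of SNORD123 (ENSG00000250786, chr5:9546200-9550609, plus strand), had 27.8, 28.7 and 23.1 CPM with frankincense, against 36.7, 37.8 and 38.3 CPM with vehicle. SNHG16, the host of SNORD1A to SNORD1C (ENSG00000163597, chr17:76557766-76565348, plus strand), had 48.1, 52.9 and 45.9 CPM with frankincense, against 60.1, 57.0 and 60.8 CPM with vehicle. SNHG14 had 19.7, 21.0 and 21.9 CPM with frankincense, against 24.7, 24.8 and 23.2 CPM with vehicle. The frankincense libraries lay below the vehicle libraries in each gene, by a narrow gap in SNHG14. The log2 changes were -0.51 ± 0.076 for SNHG18, -0.28 ± 0.062 for SNHG16 and -0.22 ± 0.070 for SNHG14 (SE; edgeR, adjusted p = 4.37e-05, 0.00132 and 0.0148), but on log2(TPM + 1) they were -0.23, 0.030 and 0.0093 and none was called (limma, adjusted p = 0.0925, 0.727 and 0.932). The TPM scale moved the median of all genes to 0.20. With TPM rescaled without mitochondrial genes that median was 0.053. There SNHG16 and SNHG14 were at -0.15 and -0.16 and not called (limma, adjusted p = 0.0776 and 0.135), and SNHG18 kept its call. SNHG14 also lost its call without frankincense replicate 1 or vehicle replicate 1 or 2 (edgeR, adjusted p of 0.0574 to 0.0595). The same held with the DESeq2 test (adjusted p = 0.0678) and with library size alone (edgeR, adjusted p = 0.110).

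SNHG10, SNHG30, SNHG19 and SNHG21 fell by 0.70, 0.69, 0.57 and 0.48 on the log2 scale (edgeR, adjusted p = 3.41e-05, 0.00059, 0.000152 and 0.00844). They had 3.06 to 6.28 CPM with frankincense and 4.25 to 9.60 CPM with vehicle on average, and in each the groups did not overlap. SNHG10, SNHG19 and SNHG30 kept their call and direction under all 18 alternative settings. SNHG21 lost its call with the DESeq2 test (adjusted p = 0.0639) and on log2(TPM + 1) (limma, adjusted p = 0.0544). With TPM rescaled without mitochondrial genes SNHG21 kept the call. Of its 1053 exon bases, 768 are shared on the same strand with ENSG00000252690, which was not called (edgeR, adjusted p = 0.204). The value of SNHG21 thus depends on how RSEM divided reads between that pair. SNHG22, SNHG20, DANCR and SNHG9 were not called, at 0.49 ± 0.30, 0.045 ± 0.10, -0.13 ± 0.11 and -0.18 ± 0.18 (log2 ± SE; edgeR, adjusted p of 0.175 to 0.721). SNHG22 had 0.697 to 1.29 CPM with frankincense and 0.635 to 0.898 CPM with vehicle.

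The direction was also counted by the kind of RNA inside, a split made after the values were seen and given without a test. Of 12 tested hosts with C/D box RNAs alone, 7 rose and 5 fell, with a median log2 change of 0.27. Of 10 with H/ACA box RNAs alone, 8 rose, 0 fell and 2, DANCR and SNHG9, were not called, with a median of 0.65. Both tested hosts of both kinds, GAS5 and SNHG12, rose, as did SNHG28, whose inner gene has no named class. Of the 4 scaRNA hosts, SNHG10 and SNHG21 fell and SNHG20 and SNHG22 were not called, with a median of -0.22. By the start tract, of 14 tested hosts with such a transcript 11 rose and 3 fell (median 0.41), and of 15 without it 7 rose, 4 fell and 4 were not called (median 0.32).

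On the count scale, the 4 nuclear RNAs that host no snoRNA did not move in 1 direction. NEAT1 (ENSG00000245532, chr11:65422774-65445540, plus strand) had 5275, 4652 and 5453 CPM with frankincense, against 2925, 2952 and 2913 CPM with vehicle. Every frankincense library exceeded every vehicle library, with more spread than among the vehicle libraries. The log2 change was 0.81 ± 0.069 (SE; edgeR, adjusted p = 1.23e-07).

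MALAT1 (ENSG00000251562, chr11:65497688-65506516, plus strand) lies next to NEAT1 on chromosome 11 and had 323, 329.6 and 334 CPM with frankincense, against 402, 414 and 398 CPM with vehicle. TUG1 (ENSG00000253352, chr22:30969245-30979395, plus strand) had 262, 249 and 249 CPM with frankincense, against 300.2, 303 and 307 CPM with vehicle. Both were lower in every frankincense library on this scale. The log2 changes were -0.30 ± 0.054 for MALAT1 and -0.26 ± 0.053 for TUG1 (SE; edgeR, adjusted p = 0.000205 and 0.000624). On log2(TPM + 1) they were 0.17 and -0.033 and not called (limma, adjusted p = 0.129 and 0.632). With TPM rescaled without mitochondrial genes MALAT1 was at -0.016 and not called (limma, adjusted p = 0.888), while TUG1 kept its lower call.

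MEG3 (ENSG00000214548, chr14:100779410-100861031, plus strand) had 300.4, 273 and 339 CPM with frankincense, against 288, 283 and 251 CPM with vehicle. The groups overlapped and the log2 change of 0.15 ± 0.079 was not called (SE; edgeR, adjusted p = 0.114), though it was 0.23 and called without frankincense replicate 2 (adjusted p = 0.0236). The median log2 change over the 4 RNAs was -0.055, beside 0.32 over the tested hosts; with so few genes no test of this difference was made.

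As a share of all expected counts, the hosts together made up 0.239 ± 0.012% of the frankincense libraries and 0.127 ± 0.0012% of the vehicle libraries (SD, n = 3 each), a ratio of 1.88, and 1.94 without frankincense replicate 3. The 4 other RNAs made up 0.617 ± 0.050% with frankincense and 0.381 ± 0.0045% with vehicle (SD, n = 3 each). Without NEAT1 these shares were 0.0909 ± 0.0045% and 0.0955 ± 0.0025%, in the same order, so on counts the higher total of the 4 came with NEAT1. As a share of TPM, these RNAs without NEAT1 made up 0.0345 ± 0.0042% with frankincense and 0.0284 ± 0.00061% with vehicle (SD, n = 3 each). Within the host total GAS5 took 21.5% with frankincense and 14.7% with vehicle, SNHG29 16.1% and 18.1%, and SNHG1 14.4% and 12.6%, each with the frankincense share first.

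Levels were compared between genes on the TPM scale, which divides by transcript length. NEAT1 was highest, at 3678 ± 393 TPM with frankincense and 1785 ± 35.3 TPM with vehicle (SD, n = 3 each). GAS5 followed at 1256 ± 55.6 and 369 ± 11.6 TPM, and SNHG29 at 584 ± 24.5 and 314 ± 21.1 TPM, frankincense first. Each of these was apart from the next in every frankincense library. ZFAS1, SNHG32 and SNHG1 came next with frankincense at 460 ± 38.2, 426 ± 25.0 and 411 ± 5.81 TPM, ranges that overlapped between neighbours in this order. With vehicle they were at 134, 119 and 153 TPM, and SNHG5, at 224 ± 4.46 TPM, stood above them in place 4; with frankincense SNHG5 was in place 7, at 292 ± 30.3 TPM. MALAT1 was in place 13 with frankincense and in place 10 with vehicle, at 84.4 ± 9.63 and 74.9 ± 5.04 TPM.

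Several noncoding RNAs start close to a protein-coding gene that runs the other way, and the pairs were compared. Distances run between the outermost GENCODE 29 starts of the genes. Some transcripts, such as those of GAS5 and ZFAS1 shown above, start elsewhere. SNHG1 starts 188 bases from SLC3A2, a subunit shared by several amino acid exchangers, which had 1103, 1106 and 1249 CPM with frankincense, against 153, 156 and 145 CPM with vehicle. Both genes of this pair rose, SLC3A2 by 2.93 on the log2 scale (edgeR, adjusted p = 3.33e-13) and SNHG1 by 1.02. ZFAS1 starts 248 bases from ZNFX1, which codes for an RNA helicase and had 39.4, 40.8 and 39.7 CPM with frankincense, against 62.5, 61.2 and 64.0 CPM with vehicle. Here the partners moved apart: ZNFX1 fell by 0.65 (edgeR, adjusted p = 9.12e-08) while ZFAS1 rose by 1.52. The exons of this pair overlap by 249 bases, so reads from that stretch could be counted for either gene if strand was not kept.

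The other pairs varied as well. ZBTB37, 800 bases from the start of GAS5, was not called, at 25.0, 23.1 and 30.3 CPM with frankincense, against 24.7, 25.6 and 21.3 CPM with vehicle. SEMA5A, 125 bases from SNHG18, fell with it, by 0.32 (edgeR, adjusted p = 0.000111). MORC2, 947 bases from TUG1, rose by 0.42 (edgeR, adjusted p = 3.14e-05), against the fall of TUG1 on the count scale. RPS2, TRAF7, ACAA2 and GLRX5, which neighbour SNHG9, SNHG19, SNHG22 and SNHG10, were not called (edgeR, adjusted p of 0.0972 to 0.933). BARD1, 518 bases from SNHG31, fell by 0.18 (edgeR, adjusted p = 0.0179), while SNHG31 had too few counts to test. DIPK1B, whose exons overlap those of SNHG7 on the other strand, fell by 0.87, and SIL1, which overlaps SNHG4, rose by 0.98 (edgeR, adjusted p = 7.11e-07 and 9.40e-08).

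**Figure D3:**
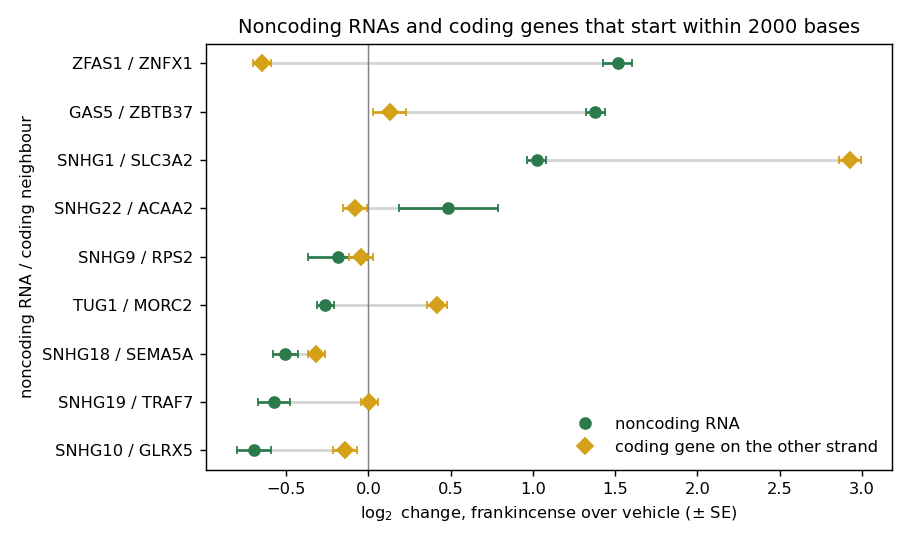
Log2 change, frankincense over vehicle, with its SE for 9 noncoding RNAs (circles) and for the coding gene on the other strand that starts within 2000 bases (diamonds), each pair joined by a line. SNHG1 and SLC3A2 lie on the same side of 0, ZFAS1 and ZNFX1 on opposite sides.

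The promoters of these divergent pairs are given because the data bear on them. They come from the RefSeq table (GRCh38), which had an entry for 28 hosts and 3 of the other RNAs, and bases in exons of the coding neighbour were left off. Capitals mark the oligopyrimidine tract at the start, which the SNHG1 start used by RefSeq does not have.
ZFAS1, chr20:49278427-49278691, plus strand: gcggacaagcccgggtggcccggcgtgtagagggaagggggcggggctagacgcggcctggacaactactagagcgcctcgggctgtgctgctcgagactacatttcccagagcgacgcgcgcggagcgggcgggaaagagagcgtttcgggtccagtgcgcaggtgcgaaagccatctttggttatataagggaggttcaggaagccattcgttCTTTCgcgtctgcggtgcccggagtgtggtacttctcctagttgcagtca
SNHG1, chr11:62855836-62856101, minus strand: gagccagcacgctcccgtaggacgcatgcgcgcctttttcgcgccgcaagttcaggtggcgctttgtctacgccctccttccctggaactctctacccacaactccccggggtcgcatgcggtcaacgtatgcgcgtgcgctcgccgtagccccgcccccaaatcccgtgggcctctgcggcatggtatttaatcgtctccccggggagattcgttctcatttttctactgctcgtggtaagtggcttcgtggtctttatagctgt
Letters of 4 motifs were searched on both strands of the 300-base windows. TGATGNAA, a core of ATF4-type sites, was in 0 of 28 hosts, against 4.46% of 27305 genes. TGACGTCA, the cyclic AMP response element, was in 0 hosts (2.25% of genes), CACGTG, the E-box, in 2 (8.77%), and TGACNNNGC, the core of antioxidant response elements, in 3 (16.1%).

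RSEM, the program behind the counts, gives each gene a length in every library, an average over its isoforms in which abundant ones count more, and which can move apart from the total. It was fitted for 32 members among 12962 genes whose length varied. SNHG15 had 1242, 1170.1 and 1216 bases with frankincense, against 1658, 1601 and 1622 bases with vehicle. The groups were far apart, and SNHG15 alone among the members was called, as shorter by 0.43 on the log2 scale (limma on log2 length, adjusted p = 0.0123; 0.926% of genes were called shorter and 0.185% longer). The call was lost on leaving out any library (adjusted p of 0.0508 to 0.0889), while the change stayed between -0.45 and -0.40.

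Some other hosts that rose also leaned toward shorter forms without passing this test. EPB41L4A-AS1 had 754, 684 and 671 bases with frankincense, against 889.5, 932.5 and 898 bases with vehicle. SNHG1 had 1307, 1303 and 1340.4 bases with frankincense, against 1457, 1467 and 1428 bases with vehicle. GAS5 had 720.4, 717 and 766 bases with frankincense, against 794, 795 and 787 bases with vehicle. In each of them every frankincense library was shorter than every vehicle library (limma, adjusted p = 0.0593, 0.0542 and 0.206). Of 28 fitted hosts 9 had wholly shorter frankincense libraries and 3 wholly longer ones, against 12.8% and 8.42% of genes. Of the 18 hosts that rose, 8 were among the shorter and 1 among the longer. SNHG32, ZFAS1 and SNHG8, which had the largest rises, had overlapping length groups, with log2 length changes of 0.0050, -0.014 and 0.011. Among the other nuclear RNAs the frankincense libraries were wholly shorter in MALAT1 and MEG3 and wholly longer in TUG1, and NEAT1 was at 2139 ± 84.4 bases with frankincense and 2125 ± 20.7 bases with vehicle (SD, n = 3 each).

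**Figure D4:**
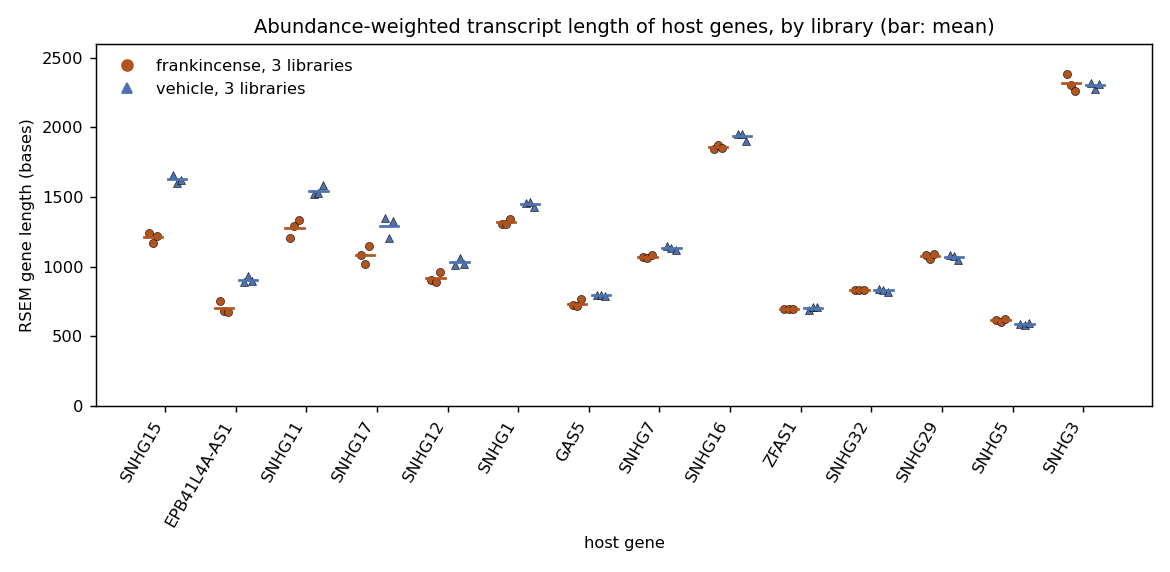
Abundance-weighted transcript length in bases reported by RSEM in each of the 3 frankincense (circles, left) and 3 vehicle libraries (triangles, right) for 14 host genes, with a bar at the mean. Frankincense libraries lie wholly below vehicle libraries from SNHG15 to SNHG16, and SNHG15 was the gene that passed the test.

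The snoRNAs themselves were hardly seen. Of 144 snoRNA and scaRNA genes that GENCODE 29 places on the same strand inside the hosts, 60 of them outside SNHG14, 15 had a count in any library and 2 had at least 10 counts over all libraries. SNORA73B, inside SNHG3, had 7, 13 and 14 counts with frankincense, against 6, 30 and 10 counts with vehicle, groups that overlapped. The changes reported here are those of reads counted for the host genes, and none is reported for a mature snoRNA. Whether reads of snoRNAs that lie in annotated host exons entered the host counts was not tested.

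Genes of the surrounding pathways were counted in the same fit, against the shares of 31.9% and 31% given above. Of 19 proteins that form or assemble the snoRNA particle, 12 rose and 3 fell. NUFIP1, an assembly factor, had 25.3 ± 1.38 CPM with frankincense and 13.3 ± 0.384 CPM with vehicle, and DKC1, the pseudouridine synthase of H/ACA particles, 138 ± 3.36 and 76.1 ± 1.38 CPM in that order (SD, n = 3 each). PIH1D1 and RUVBL2, parts of the R2TP assembly complex, fell by 0.27 and 0.20 on the log2 scale (edgeR, adjusted p = 0.00053 and 0.00307). Of 30 coding genes that host snoRNAs, 12 rose and 8 fell, with a median log2 change of 0.027. DKC1, itself such a host, and PPAN rose by 0.86 and 0.84, while the ribosomal protein gene RPL7A and the chromatin remodeller CHD4 fell by 0.92 and 0.70 (edgeR, adjusted p of 1.60e-09 to 2.88e-07).

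Of 20 factors of nonsense-mediated decay, 9 rose and 4 fell, with a median log2 change of 0.12. MAGOHB and NBAS rose by 0.97 and 0.82, and PNRC2 and EIF4A3 fell by 0.37 and 0.24 (edgeR, adjusted p of 4.27e-08 to 0.000816). UPF1, its central helicase, had 66.0 CPM with frankincense and 64.9 CPM with vehicle and was not called (edgeR, adjusted p = 0.759). Of 9 coding mRNAs known as targets of this decay, 8 rose and 0 fell, with a median log2 change of 1.19. Several of them are also known as targets of stress signalling, and the list was chosen with earlier results of these data known. Decay of these mRNAs or of the hosts was not tested. GADD45A had 412 ± 48.1 CPM with frankincense and 44.9 ± 2.44 CPM with vehicle, and DDIT3 had 177 ± 14.5 and 31.3 ± 2.80 CPM in the same order (SD, n = 3 each).

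Of 12 paraspeckle proteins, the partners of NEAT1, 2 rose and 7 fell, with a median log2 change of -0.17. SFPQ, which holds the particle together with NONO, had 158 ± 1.28 CPM with frankincense and 265 ± 1.09 CPM with vehicle (SD, n = 3 each), and HNRNPH3 fell by 0.55 (edgeR, adjusted p = 7.29e-07). FAM98A and RBM14 rose by 0.34 and 0.20 (edgeR, adjusted p = 0.000188 and 0.0209). Of 11 regulators of translation and of oligopyrimidine mRNAs, 8 rose and 1 fell. EIF4EBP1, a repressor of cap-dependent translation, and CNBP rose by 1.07 and 0.41, and EIF4EBP2, a close relative of EIF4EBP1, fell by 0.70 (edgeR, adjusted p of 8.06e-08 to 0.00027).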

How the data were processed

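RNA of 12Z cells was sequenced in 6 libraries. The submitters' processing notes name STAR, RSEM 1.3.1 and the GRCh38 build, with STAR version, annotation and read filters not given in the sources used here. The authors deposited RSEM output: expected counts (reads estimated for each gene), TPM values (abundance per length, to a fixed total) and a gene length averaged over isoforms by abundance, per the file headers. RSEM divides reads among overlapping or similar genes.

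Expected counts were rounded and tested with edgeR 4.0.16 (R 4.3.3): filterByExpr, TMM, robust glmQLFit and glmQLFTest, two-sided, Benjamini-Hochberg over 16719 genes. CPM uses TMM-scaled library sizes. Log2 lengths were fitted with limma 3.58.1 for genes with at least 10 expected counts in every library. All 36 members were found in GENCODE 29, which gave coordinates. The fits were tested on simulated data. Alternatives were other scalings, filters, DESeq2 1.42.0, limma-voom, TPM, a replicate block and leaving out each library.

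Members and lists were chosen with earlier results of these data known. Values per library are given for hosts averaging at least 20 CPM in either group or changed and called at a log2 of 1 or more and for the other 4 RNAs, and for each list the 2 largest rises and 2 largest falls among called genes whose higher group averaged 5 CPM or more. Genes outside this rule were taken for their position or chosen after their values were seen. They are SLC3A2, ZNFX1 and the other neighbours, UPF1, SNORA73B, the cell type markers, ENSG00000285565, ENSG00000256029, ENSG00000252690, MATR3, RCC1, and the lengths shown.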

Additional observations from a re-analysis of the deposited data

How the results depend on the processing

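Of 33 tested members, 21 kept their call under every one of the 18 alternatives that tested them (3 members drop out at 5 CPM). The called ones among the 21 also kept their direction, and they include 14 hosts that rose and 3 that fell. For members that were not called, a change of sign was not counted. SNHG9, at -0.18 on the count scale, averaged 29.1 TPM with frankincense and 28.4 TPM with vehicle. The count of hosts that rose was 14 to 19 under these settings, beside 18. Among the 3 tested hosts whose exons overlap no other gene, small RNA genes included, 1 rose and 2 fell, with a median log2 change of -0.51. Among the 10 with no overlap once small RNA genes are left aside, a setting added after seeing the data, 7 rose and 2 fell, with a median of 0.57. On log2(TPM + 1) and log2(TPM + 0.1), which move the median of all genes to 0.20 and 0.24, 3 hosts fell with either, the host median was 0.50 and 0.56, 2 of the other nuclear RNAs rose and 0 fell with either, and their median was 0.31 with either. There SNHG14 was at 0.0093 and 0.010, SNHG16 at 0.030 and 0.031, and MALAT1 at 0.17 with both. With TPM rescaled without mitochondrial genes, 1 of the other nuclear RNAs, TUG1, fell and their median was 0.12. In that setting SNHG14, SNHG16 and MALAT1 were at -0.16, -0.15 and -0.016 and not called. With library size alone the host median was 0.40 and 2 of the other RNAs rose, as 2 did without the filter on low counts. On TPM the ratio of shares was 2.29 for the hosts and 1.94 for the other RNAs. The cause of these shifts was not tested. On leaving out each library, the host median ran from 0.27 to 0.44, the number of other RNAs called higher from 1 to 2, and 0 members were called shorter, which leaves fewer samples in the fit.

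Whether replicate numbers pair the libraries was not settled. Same-numbered libraries had correlations of 0.050, 0.10 and 0.035 of their deviations from the group means. These were low, but each library correlated best with its own number. With the replicate block 32 of 33 members kept their call, SNHG28 had an adjusted p of 0.0523, and 0 members were called shorter, SNHG15 having an adjusted p of 0.144. Genes under about 3 counts a library could not be judged at this depth.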
